A study of Mus musculus with 67 samples.

Results

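Regulatory T cells (Tregs) from the hypothalamus of Balb/c mice on a high-fat high-sugar (HFHS) diet or a standard diet (SD) were measured by RNA sequencing. Members were chosen by label, as each library of the second experiment that is labelled Balb/c, hypothalamus and Treg, which gave 8 of the 67 libraries of the series, 4 for each diet. The mice were female Foxp3GFP reporter animals, in which green fluorescent protein marks cells that express Foxp3, and the HFHS diet began at 6 weeks of age. The length of the diet and the sort gate of the Tregs are not stated for this experiment. Each library came from a pool of mice named by a range of numbers, and no range is shared between the diets. The ranges 15 to 21 and 16 to 20, both HFHS, overlap in number, and the labels do not say that replicates are separate mice. P-values below therefore measure only the spread between these libraries.

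Libraries of 4 other kinds served for comparison. Activated conventional T cells, sorted as CD4 positive, negative for CD25 and the reporter, CD44 high and CD62L low, gave 8 libraries from the same 8 pools. Hypothalamic Tregs of C57Bl/6J mice gave 8 libraries, 4 for each diet, and since those mice were male, strain and sex cannot be told apart. Tregs from the remainder of the Balb/c brain gave 6 libraries. The pilot experiment gave 1 library for each diet, from CD4+CD25+Foxp3GFP+ Tregs of 9 females of the same reporter strain, whose hypothalami were pooled after 16 weeks of feeding.

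Tregs are CD4 T cells that restrain other immune cells, and the transcription factor Foxp3 defines their lineage. They take up interleukin 2 through a receptor whose high-affinity chain, CD25, is encoded by *Il2ra*, and they carry inhibitory receptors such as Ctla4. In adipose tissue and other organs, resident Tregs have been linked to local inflammation and metabolism.

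Total estimated counts, summed over genes, were 17557285, 16748411, 13646796 and 38482277 in HFHS replicates 1 to 4 and 11389718, 10232574, 15100361 and 33842879 in SD replicates 1 to 4. The totals overlapped between diets (exact permutation test, p = 0.486, adjusted over 29 single values p = 0.880). A floor of 3 counts equals 0.0780 to 0.293 CPM, the unit of counts scaled to the library total, in these 8 libraries. Floors and intervals here cover counting error only, since reads copied by PCR are not independent molecules.

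Genes with more than 10 counts were called detected, and HFHS Tregs had more of them. HFHS replicates 1 to 4 had 4850, 5511, 6583 and 5280 detected genes, and SD replicates 1 to 4 had 4260, 2152, 2991 and 3936. The lowest HFHS library lay above the highest SD library, although SD replicate 4 had the second highest total of all 8. The means were 5556 ± 737 (standard deviation, n = 4) and 3335 ± 955 (standard deviation, n = 4), a difference of 2221 genes. By an exact two-sided permutation test this gave p = 0.0286, the smallest value that the 70 arrangements of 4 and 4 libraries allow, and p = 0.207 after Benjamini-Hochberg adjustment over 29 single values. Without SD replicate 2, which stands apart, the difference was 1827 genes (exact permutation p = 0.0286). In bulk libraries, fewer cells and less RNA per cell cannot be told apart, and the number of sorted cells per library is not given.

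The most abundant transcripts took a larger share of the SD libraries. The 10 most abundant genes of each library held 8.28%, 8.50%, 8.95% and 8.55% of the counts in HFHS replicates 1 to 4 and 9.76%, 12.2%, 10.2% and 11.15% in SD replicates 1 to 4. These groups did not overlap (exact permutation p = 0.0286, adjusted over 29 single values p = 0.207). *Tmsb4x*, which encodes the actin-binding peptide thymosin beta 4, led in HFHS replicates 2, 3 and 4 and SD replicate 1, and *B2m*, the light chain of MHC class I, led in HFHS replicate 1. The nuclear transcript *Malat1* led in SD replicates 3 and 4.

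**Figure D1:**
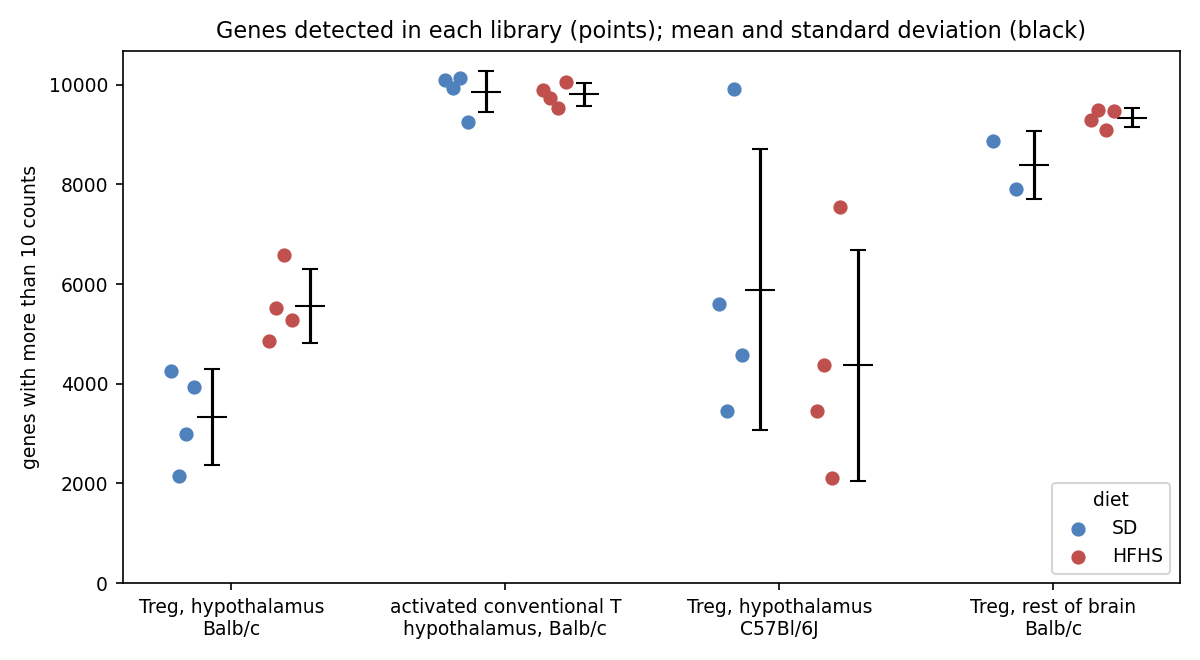
Genes with more than 10 counts in each library (points) of 4 kinds of sorted cells, by diet, with the mean and standard deviation in black. Balb/c hypothalamic Tregs had 4850 to 6583 detected genes on the HFHS diet and 2152 to 4260 on SD, below all libraries of activated conventional T cells (9261 to 10143).

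Detected genes in other sorted populations were more numerous or more variable. Activated conventional T cells of the same pools had 9536 to 10057 detected genes on the HFHS diet and 9261 to 10143 on SD, with a difference between diets of −57.2 (exact permutation p = 0.8). Taking each pool's Tregs minus its conventional T cells, the diets differed by 2278.5 genes (exact permutation p = 0.0286, adjusted over 2 such tests p = 0.0571). C57Bl/6J Tregs had 3449, 4380, 2108 and 7543 detected genes on the HFHS diet and 5602, 3455, 9905 and 4579 on SD, which overlapped (difference −1515, exact permutation p = 0.429). The diet difference of Balb/c Tregs exceeded that of C57Bl/6J Tregs by 3736.5 genes (permutation of diet labels within strains, exact p = 0.0641, adjusted over 2 tests p = 0.0641). Tregs from the rest of the Balb/c brain had 7902 to 9495 detected genes.

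The label was checked against *Foxp3* (chrX:7579676-7595243 of GRCm38, which equals mm10), the transcription factor of the lineage. *Foxp3* had 157, 441, 30.4 and 80.4 CPM in HFHS replicates 1 to 4 and 389.8, 0.0977, 497 and 862 CPM in SD replicates 1 to 4. It was well above the floor in 7 libraries and at 1 count in SD replicate 2. In activated conventional T cells, gated as negative for the reporter, it had 0 to 13.4 CPM. T-cell genes were abundant in each Treg library: the summed level of 16 core T-cell genes, led by the receptor subunit *Cd3g*, was 8711, 13587, 14386 and 14867 CPM in HFHS and 13252, 7608, 13966 and 17083 CPM in SD replicates. All 16 of these genes were detected in each HFHS library, and 14, 9, 15 and 16 of them in SD replicates 1 to 4.

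SD replicate 2, from pool 32 to 36, stood apart from the others in markers of other cells. The summed level of 12 microglia genes was 30660 CPM there and 0.478 to 495 CPM in the other 7 libraries. Of these 12 genes, 11 were detected in SD replicate 2 and at most 1 in each of the others. *Cst3*, which encodes cystatin C and is abundant in microglia, reached 41320 CPM and was the most abundant gene of that library, against 127 to 384 CPM elsewhere. The purine receptor gene *P2ry12* had 4866 CPM and the fractalkine receptor gene *Cx3cr1* 833 CPM in SD replicate 2, with at most 0.0733 CPM elsewhere. Both genes were chosen after their values were seen. Of 18 Treg identity genes, 6 were detected in that library, against 9 to 15 in the other 7. It held *Ikzf2* at 1640 CPM and *Ctla4* at 1570 CPM. *Foxp3* and *Il2ra* had 1 count each there, *Tnfrsf18* had 2 counts, and *Nrp1* and *Itgae* had 0. *Il2ra* had 0 counts in SD replicates 3 and 4 as well. For the gene lists below, counts of tested genes are given with and without SD replicate 2.

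Other marker sums were also highest in SD replicate 2. Macrophage and monocyte genes, 10 in number and led by *Adgre1*, summed to 2394 CPM there with 5 detected, to 26.4 CPM with 1 detected in SD replicate 1, and to at most 0.456 CPM elsewhere. The 8 astrocyte genes, led by *Aldoc*, summed to 1170 CPM there with 4 detected and to at most 0.132 CPM elsewhere, and *Gfap* and *Aqp4* were never detected. The 6 B-cell genes, led by *Cd79b*, summed to 398.8 CPM there, 55.8 CPM in HFHS replicate 2 and 11.9 CPM in HFHS replicate 3, with *Ms4a1* never detected. Endothelial genes, 6 in number and led by *Pecam1*, summed to 315 CPM in SD replicate 2, 286 CPM in HFHS replicate 2 and 222 CPM in HFHS replicate 4, with *Cdh5* and *Vwf* never detected. *Pecam1* made up nearly all of the sums in HFHS replicates 2 and 4 but had 0 counts in SD replicate 2, where other genes of the list were detected. The part of these transcripts in the diet differences was not tested.

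Markers of neurons and blood were near 0 in most libraries, while those of oligodendrocytes were not. The 5 neutrophil genes found in the files had 0 CPM in all 8 libraries. Of 11 neuronal genes, only the synaptic vesicle gene *Syp* was detected, at 59.1, 24.8 and 127 CPM in HFHS replicates 1, 3 and 4 and 1.60 CPM in SD replicate 4. Of 12 hypothalamic neuropeptide genes, only *Pomc*, the precursor of melanocortins, was detected, at 70.85 CPM in SD replicate 1. The 5 erythroid genes were represented by *Hba-a1* alone, at 79.2 CPM in SD replicate 1, and of 5 genes of CD8 T cells and natural killer cells only *Cd8b1* was detected, at 8.13 CPM in HFHS replicate 3. Of 8 oligodendrocyte genes, whose sum was 382 to 623 CPM in HFHS and 107 to 813 CPM in SD libraries, the leading gene was *Cnp*, and *Mog*, *Mag*, *Mobp*, *Cldn11* and *Mal* were never detected. Summed levels of these lists overlapped between the diets except for CD8 and natural killer genes, which were at 0.0597 to 8.13 CPM in HFHS and 0 in all SD libraries (exact permutation p = 0.0286, adjusted over 29 single values p = 0.207). For the CD8 and natural killer sum, the exact permutation p was 0.457 without SD replicate 2. Without HFHS replicate 3 the highest of its values was 0.228 CPM.

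The comparison of HFHS with SD asks which genes of hypothalamic Tregs differ with the diet. Genes were tested when at least 4 of the 8 libraries had more than 10 counts. Many were present in some pools and at 0 in others of the same diet. Of 24530 features, 14759 were detected in no library, 2298 in exactly 1, and 700 in all 8. All 4 HFHS libraries shared 2517 detected genes and all 4 SD libraries 787. Of the 4576 genes tested, 2588 had a higher fitted mean on the HFHS diet, with a median log2 fold change of 0.22 (0.23 without SD replicate 2). With DESeq2 size factors in place of TMM the median was −0.11 and 2133 genes were higher, so directions near 0 depend on the scaling.

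By edgeR's quasi-likelihood test with Benjamini-Hochberg adjustment, 0 of 4576 genes were higher (0.0%) and 0 lower (0.0%) at an adjusted p under 0.05, while 199 had an unadjusted p under 0.05. The smallest adjusted p-value was 0.261. On the same genes, DESeq2's Wald test called 175 higher and 10 lower, and limma-voom with sample quality weights called 171 higher and 6 lower. Of the genes described below, *Lta*, *Bccip*, *Ccnt2*, *Akap9*, *Lonp2*, *Il2ra*, *Map2k1*, *Akt1*, *Rps6kb1* and *Acaa2* had adjusted p-values under 0.05 with both tools. So did *Myc*, *Ptger4*, *Tnfsf8* and *Ddx5*, which were chosen after their values were seen. Apart from *Il2ra*, *Map2k1*, *Acaa2* and *Ddx5*, these genes exceeded 10 counts in HFHS libraries alone. They passed the filter through that diet only, so their p-values are given as a description. *Il2ra* and *Acaa2* met the filter through the 4 HFHS libraries, with 1 SD library above 10 counts. *Map2k1* met it through the 4 SD libraries, with 1 HFHS library above 10 counts. The p-values of these genes are likewise a description. *Zfp950*, *Pbrm1* and *Btg2* had adjusted p-values under 0.05 with DESeq2 alone, and *Zdhhc15*, *B2m*, *Ppia* and *Pfn1* with limma-voom alone. Without SD replicate 2, edgeR called 1 gene of 5769, *Capza2*, which encodes an actin-capping subunit and was chosen after its values were seen. *Capza2* had 498.5, 1028, 565 and 819 CPM in HFHS replicates and 0, 2708, 0.0662 and 0.0296 CPM in SD replicates 1 to 4 (edgeR adjusted p = 0.0145 without SD replicate 2 and 0.9995 with it). Without that library *Capza2* passed the filter through HFHS libraries only, so its p-value there is a description.

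Though no gene passed edgeR's test with all libraries, groups that did not overlap lay mostly in 1 direction. All 4 HFHS libraries were above all 4 SD libraries in CPM for 262 of the 4576 tested genes (5.73%) and below them for 23 (0.503%), where chance gives 1.43% in each direction for 4 against 4 libraries. The same counts without SD replicate 2 were 347 and 79, where chance gives 2.86% of genes in each direction for 4 against 3. Of the 262 higher genes, 130 had no SD library above 10 counts. Those genes entered the tested set through the HFHS libraries alone, so the share by chance is no test of the direction. The preponderance was less marked among the 700 genes detected in all 8 libraries, where 19 were higher and 9 lower without overlap and the median log2 fold change was −0.10. The numbers of detected genes differed between the diets in the same direction, and their part in these counts was not tested.

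Detection in 1 diet only was counted over the 9771 genes detected in at least 1 of the 8 libraries. Detected in all 4 HFHS and no SD libraries were 130 genes (1.33%), and the reverse pattern was met by 0 genes (0.0%). With a threshold of 1 count the numbers were 98 and 0, with more than 100 counts 126 and 1, the prolyl hydroxylase gene *Egln2* (named after its values were seen), and without SD replicate 2 they were 166 and 6. These counts carry no test.

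*Akap9*, *Bccip*, *Ccnt2* and *Lonp2* were among the genes detected in HFHS libraries alone. They passed the filter through those libraries only, so their p-values are a description. *Akap9* (chr5:3927736-4080204), which encodes a scaffold protein of the Golgi and centrosome, had 223, 130, 517 and 245 CPM in HFHS replicates 1 to 4 and 0 counts in each SD library. Its mean was at least 1321-fold higher on the HFHS diet, against a floor of 3 counts per library (edgeR adjusted p = 0.261). *Bccip* (chr7:133709333-133721145), whose product binds BRCA2 and CDKN1A, had 259, 255, 157 and 249 CPM on the HFHS diet against 1 count in 1 SD library (edgeR adjusted p = 0.261). *Ccnt2*, a cyclin of transcription elongation, was lower in level, with 8.09, 7.70, 12.4 and 11.7 CPM against 0 counts in all SD libraries, at least 47.2-fold. The peroxisomal protease gene *Lonp2* had 361, 219, 131.5 and 328.5 CPM against 1 count in SD replicate 2 and 0 in the other SD libraries.

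*Lta* (chr17:35203165-35205578), the cytokine lymphotoxin alpha, had 85.7, 459.6, 16.5 and 726 CPM on the HFHS diet and 1 count in SD replicate 4 alone. Its unadjusted p was the smallest of the fit but did not pass adjustment (edgeR adjusted p = 0.261). *Lta* too passed the filter through HFHS libraries only, so this p-value is a description. Further genes were chosen after their values were seen. *Tnfsf8*, the ligand of CD30, had 61.2, 4.72, 39.5 and 119 CPM against 0 counts, at least 266-fold higher. The transcription factor gene *Myc* had 119, 90.4, 59.2 and 318 CPM against 2 counts in SD replicate 4, and the prostaglandin E2 receptor gene *Ptger4* had 164, 454, 13.8 and 176.5 CPM against 1 count each in SD replicates 3 and 4. *Tnfsf8*, *Myc* and *Ptger4* were picked for their detection on 1 diet, so their levels are a description with no test.

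**Figure D2:**
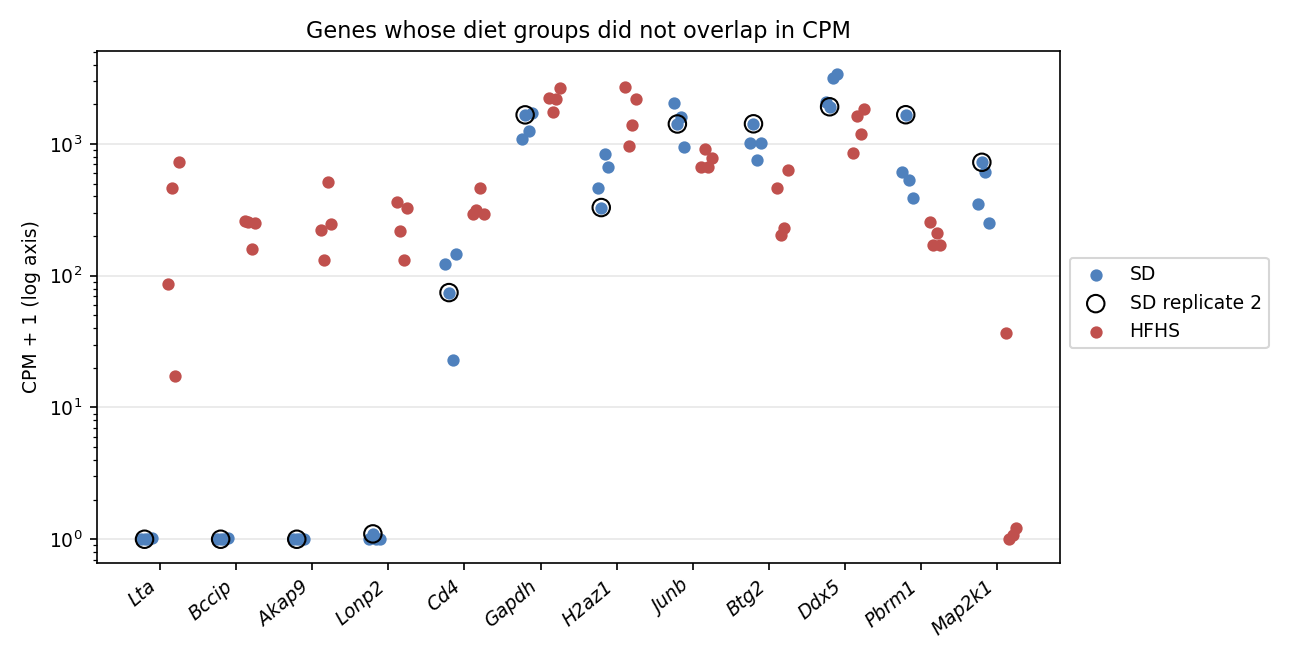
Level in CPM, with 1 added, on a log axis, of genes whose diet groups did not overlap, in each Balb/c hypothalamic Treg library, with SD replicate 2 circled. *Lta*, *Bccip*, *Akap9* and *Lonp2* had at most 1 count in any SD library, while *Junb*, *Btg2*, *Ddx5*, *Pbrm1* and *Map2k1* were higher in all 4 SD libraries.

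*Pbrm1* and *Map2k1* were among the lower genes without overlap. *Pbrm1* (chr14:31019138-31121592), a subunit of the PBAF chromatin remodeller, had 256, 171, 209 and 171 CPM in HFHS and 615, 1667, 536 and 388.5 CPM in SD replicates. Its log2 fold change was −1.99 ± 0.79 (standard error; edgeR adjusted p = 0.812), and −1.27 without SD replicate 2. *Map2k1*, which encodes the kinase MEK1, had 35.65, 0, 0.0733 and 0.208 CPM in HFHS and 347, 725, 612 and 251 CPM in SD replicates, with a log2 fold change of −5.80 ± 2.40 (edgeR adjusted p = 0.939). Other genes with low unadjusted p-values followed fewer libraries: the zinc finger gene *Zfp950* had 327 and 717.5 CPM in SD replicates 1 and 3 and at most 0.955 CPM elsewhere, and *Cst3* was highest in SD replicate 2. The log2 fold change of *Cst3* was −5.90 with that library and −0.37 without it.

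Treg signature genes did not move as 1 group. Of 18 genes of Treg identity, 12 were tested; 7 had a higher and 5 a lower fitted mean on the HFHS diet, against 4 of 12 higher with DESeq2 size factors and 8 of 15 without SD replicate 2. Their median log2 fold change was 0.10 (−0.17 with DESeq2 size factors, 0.062 without SD replicate 2), against 0.22 over all tested genes, and 0 passed edgeR's test, with 1, *Il2ra*, under an unadjusted p of 0.05. The summed level was 4053, 10156, 5718 and 4942 CPM in HFHS and 9344, 4769, 4179 and 5646 CPM in SD replicates, and the groups overlapped (exact permutation p = 0.771, adjusted over 29 single values p = 1.0). Of the 18 genes, 14, 15, 14 and 14 were detected in HFHS replicates and 12, 6, 9 and 10 in SD replicates.

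*Il2ra* (chr2:11642792-11693194) was the gene of this list whose diet groups did not overlap, 1 of 12 tested, beside 5.73% of all tested genes. It had 320, 674.5, 286 and 417 CPM in HFHS replicates 1 to 4 and 18.35, 0.0977, 0 and 0 CPM in SD replicates 1 to 4. All 4 HFHS libraries were thus above the highest SD library. The log2 fold change was 6.66 ± 2.66 (standard error; edgeR adjusted p = 0.828), and 6.27 without SD replicate 2 (edgeR adjusted p = 0.405). It was 13.57 for *Il2ra* without SD replicate 1, when the SD libraries held 1 count together, and such a fitted value depends on the prior count. Adjusted p-values were 0.0183 with DESeq2 and 0.0269 with limma-voom. *Il2ra* met the filter through the 4 HFHS libraries, so these p-values are a description. In activated conventional T cells of these pools, which were gated as CD25 negative, *Il2ra* had 8.93 to 79.2 CPM, and the pilot pair gave 1093 (HFHS) and 907 (SD) counts (1.003-fold, 95% interval 0.918 to 1.10).

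*Foxp3* itself tended the other way without passing a test. Its mean was 177 ± 183 CPM on the HFHS diet and 437 ± 355 CPM on SD (standard deviations, n = 4), and the groups overlapped. The log2 fold change was −1.24 ± 1.63 (standard error; edgeR adjusted p = 0.9995), and −1.69 without SD replicate 2 (edgeR adjusted p = 0.849). *Ikzf2*, which encodes the Treg transcription factor Helios, had 95.0, 778, 162 and 337 CPM in HFHS and 592.5, 1640, 0 and 19.9 CPM in SD replicates, and its log2 fold change was −0.72 with SD replicate 2 and 0.90 without it. The inhibitory receptor gene *Ctla4* had 272, 972, 261 and 682.5 CPM in HFHS and 429, 1570, 254 and 889 CPM in SD replicates. For *Ctla4* the log2 fold change was −0.52, or 0.11 without SD replicate 2.

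Genes of the tumour necrosis factor receptor family were among the most abundant of the identity list. *Tnfrsf18*, encoding the costimulatory receptor GITR, had 732, 1404, 854.5 and 931 CPM in HFHS and 2091, 0.196, 727 and 979 CPM in SD replicates. *Tnfrsf4*, encoding OX40, had 546, 1824, 817.5 and 340 CPM in HFHS and 2273, 790.1, 737 and 336 CPM in SD replicates. Both overlapped between the diets, with log2 fold changes of 0.15 and −0.15 that changed sign when SD replicate 2 was left out for *Tnfrsf18* (−0.28) or SD replicate 1 for *Tnfrsf4* (0.45). *Capg*, an actin-capping gene that Tregs express, was detected in all 8 libraries, at 848 to 1639 CPM on the HFHS diet and 378 to 1595 CPM on SD.

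Ectoenzyme and surface genes of Tregs were patchy. *Entpd1*, which encodes the ectonucleotidase CD39, had 146, 364.5, 199.9 and 0 CPM in HFHS replicates and at most 0.263 CPM in SD replicates. *Tigit*, an inhibitory receptor gene, had 4.73, 109, 69.7 and 169 CPM in HFHS and 14.8, 1.86, 0 and 0 CPM in SD replicates. *Lrrc32*, whose product GARP presents latent TGF-beta, had 19.9, 149.6, 0 and 152 CPM in HFHS replicates and at most 1 count in SD replicates. The groups of *Entpd1*, *Tigit* and *Lrrc32* overlapped. *Gpr83* had 186 and 106 CPM in HFHS replicates 1 and 4 and 0 counts in the other 6 libraries. *Il10*, the gene of an anti-inflammatory cytokine, had 0 counts in all 8 libraries, which allows at most 0.0780 to 0.293 CPM per library at this depth.

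Further genes of the list varied more within than between the diets. *Icos*, a costimulatory receptor gene, had 0 to 934 CPM on the HFHS diet and 0.0977 to 1128 CPM on SD. *Izumo1r*, the Treg-associated folate receptor 4 gene, had 254 to 701 CPM and 43.6 to 429.8 CPM. *Nrp1*, encoding neuropilin 1, had 138 to 275 CPM on the HFHS diet and 0 to 477 CPM on SD. The integrin gene *Itgae* had 0 CPM in HFHS replicate 4 and SD replicates 2 and 4, and 182 to 699.9 CPM in the others. *Ikzf4* had 195 CPM in SD replicate 4, about 34 CPM in HFHS replicates 2 and 3 and at most 1 count elsewhere, and *Nt5e*, encoding CD73, exceeded 1 CPM only in HFHS replicate 4, at 26.5 CPM.

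**Figure D3:**
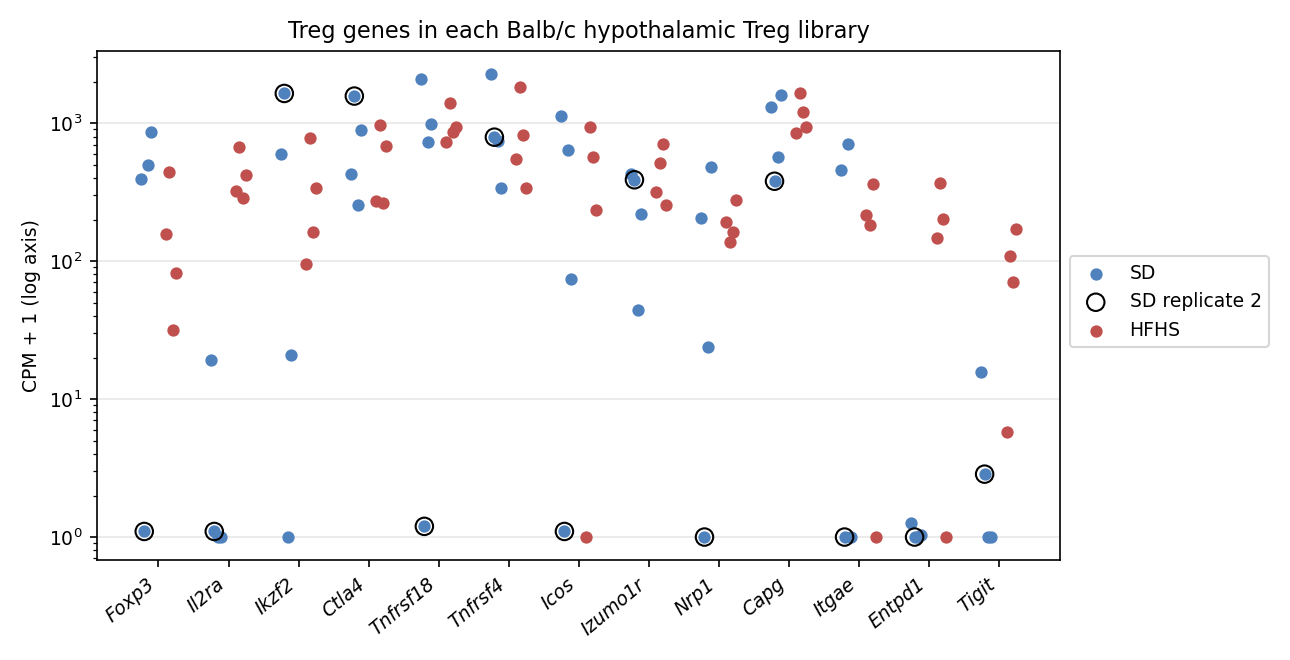
Level in CPM, with 1 added, on a log axis, of 13 Treg genes in each Balb/c hypothalamic Treg library, with SD replicate 2 circled. *Il2ra* was at 286 to 674.5 CPM in all HFHS libraries and at most 18.35 CPM in SD libraries, and the other genes overlapped between the diets.

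Of 19 genes of tissue Tregs, led by the lectin gene *Lgals1*, 12 were tested, 6 higher and 6 lower (6 higher also with DESeq2 size factors, and 6 of 13 without SD replicate 2), with a median log2 fold change of −0.054. The median was −0.30 with DESeq2 size factors, and −0.82 over the 13 genes tested without SD replicate 2. Their sum overlapped, at 1757 to 4336 CPM on the HFHS diet and 2202 to 5730 CPM on SD. *Lgals1* had 646, 1067, 1541 and 832 CPM in HFHS and 1441, 303, 357 and 1416 CPM in SD replicates. The opioid precursor gene *Penk* and the decoy receptor gene *Il1r2* were detected in no library.

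Among the 16 core T-cell genes, all tested, 9 were higher and 7 lower under both scalings, with a median log2 fold change of 0.55 (0.27 with DESeq2 size factors, and 0.15 with 10 of 16 higher without SD replicate 2). *Cd4* (chr6:124864693-124888247), the coreceptor that defines CD4 T cells, was the one of 16 whose diet groups did not overlap, beside 5.73% of all tested genes. It had 294, 317, 466 and 292 CPM in HFHS and 121, 73.5, 22.1 and 146 CPM in SD replicates. The log2 fold change was 1.96 ± 1.21 (standard error; edgeR adjusted p = 0.9995), and 1.89 without SD replicate 2 (edgeR adjusted p = 0.821). *Cd3g* overlapped, at 1327 to 2521 CPM on the HFHS diet and 1582 to 4287 CPM on SD.

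In the pathway of interleukins 2 and 7, 10 of 13 tested genes were higher on the HFHS diet, 7 with DESeq2 size factors and 9 of 14 without SD replicate 2, and 0 passed edgeR's test. The median log2 fold change was 0.35, against 0.037 with DESeq2 size factors and 0.0805 without SD replicate 2. *Il2rg*, the common gamma chain, had 891, 2169, 1788 and 1439 CPM in HFHS and 1519, 556, 1484 and 1644 CPM in SD replicates, which overlapped. *Il7r*, the interleukin 7 receptor gene, had 70.9, 1160, 739 and 103 CPM in HFHS and 384, 0.196, 667 and 0.0296 CPM in SD replicates, with 2 SD libraries near 0.

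Of 18 genes of mTOR and FoxO signalling, 12 were tested, 7 higher and 5 lower (6 higher with DESeq2 size factors), with a median log2 fold change of 0.18 (−0.087 with DESeq2 size factors, and −0.13 with 6 of 13 higher without SD replicate 2). *Akt1*, a kinase upstream of mTOR, had 152, 180.1, 41.6 and 108 CPM in HFHS replicates and 2 counts in SD replicate 2 with 0 in the other SD libraries (edgeR adjusted p = 0.299). *Rps6kb1*, the S6 kinase gene, had 103, 39.2, 27.9 and 0.988 CPM in HFHS replicates and 2 counts in SD replicate 1 alone (edgeR adjusted p = 0.379). These were the pathway genes whose groups did not overlap, 2 of 12 tested beside 5.73% of all tested genes. Neither was detected in an SD library, so both passed the filter through HFHS libraries only and their p-values are a description. *Rheb*, the GTPase that activates mTOR and the most abundant gene of the list, had 164.5, 168, 189.5 and 227 CPM in HFHS and 1.14, 471, 0 and 324 CPM in SD replicates. The even level of *Rheb* on the HFHS diet stood against SD libraries that were either high or near 0.

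Immediate early genes, which T cells switch on within minutes of stimulation or handling, were lower on the HFHS diet in direction. Of 13 tested genes, 12 were lower, also with DESeq2 size factors and 11 without SD replicate 2, and the median log2 fold change was −1.05 (−1.31 and −0.93 under those alternatives). Over all tested genes the median was 0.22 (−0.11 and 0.23), and 2588 of 4576 were higher (2133 with DESeq2 size factors). By edgeR, 0 passed the adjusted threshold and 1, *Btg2*, had an unadjusted p under 0.05. *Junb* (chr8:84976909-84978748), an AP-1 subunit, had 665, 908, 662 and 782 CPM in HFHS and 2037, 1418, 1593 and 953 CPM in SD replicates. *Btg2*, an antiproliferative gene, had 466, 201, 228 and 633 CPM in HFHS and 1015, 1422, 755.5 and 1011 CPM in SD replicates. Neither gene overlapped between the diets, which makes 2 of 13 lower without overlap beside 0.503% of all tested genes. Their log2 fold changes were −0.93 ± 0.44 and −1.43 ± 0.63 (standard errors; edgeR adjusted p = 0.9995 for both).

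*Fos* varied more among the SD libraries. It had 701, 455, 1665 and 533 CPM in HFHS and 7531, 1211, 708.5 and 1460 CPM in SD replicates. The summed level of the 16 listed genes was 4612, 4862, 6667 and 7740 CPM in HFHS and 23282, 11631, 4268 and 6534 CPM in SD replicates. Those groups overlapped, and SD replicate 1 was the highest of all (exact permutation p = 0.343, adjusted over 29 single values p = 0.8286).

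Of 12 tested glycolytic genes, 11 had a higher fitted mean on the HFHS diet and 0 passed edgeR's test (10 higher with DESeq2 size factors, and 10 of 13 without SD replicate 2), with a median log2 fold change of 0.57 against 0.22 over all tested genes. It was 0.29 with DESeq2 size factors and 0.37 without SD replicate 2, where all tested genes had −0.11 and 0.23. *Gapdh* (chr6:125161852-125166467), the glyceraldehyde phosphate dehydrogenase, had 2234, 1735, 2197 and 2680 CPM in HFHS and 1086, 1663, 1265 and 1722 CPM in SD replicates. *Pkm*, the pyruvate kinase gene, had 1670, 853, 1039 and 1179 CPM in HFHS and 424, 0.196, 797 and 421 CPM in SD replicates. Both showed no overlap, 2 of 12 tested beside 5.73% of all tested genes, with log2 fold changes of 0.66 ± 0.35 and 1.61 ± 1.28 (standard errors; edgeR adjusted p = 0.9995 for both). The summed level was 8970, 5550, 7460 and 9469 CPM in HFHS and 4031, 4515, 5653 and 6750 CPM in SD replicates (exact permutation p = 0.0857, adjusted over 29 single values p = 0.414).

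Of 12 housekeeping genes, 10 had a higher fitted mean on the HFHS diet, or 7 with DESeq2 size factors and 10 without SD replicate 2, and 0 passed edgeR's test. The median log2 fold change was 0.48, or 0.11 and 0.45 under those alternatives. *Gapdh* and *Pgk1* are on this list and the glycolytic one. Their summed level was 43947, 33524, 34288 and 37932 CPM in HFHS and 29326, 28509, 29383 and 31850 CPM in SD replicates, with no overlap (exact permutation p = 0.0286, adjusted over 29 single values p = 0.207; exact permutation p = 0.0857 without SD replicate 2).

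Fat handling and hormone signalling were thinly measured. Of 24 genes of lipid metabolism, 8 were tested, 7 of them higher on the HFHS diet, 5 with DESeq2 size factors and 9 of 12 without SD replicate 2, and *Cd36*, *Cpt1a*, *Slc27a1*, *Scd1* and *Acsl1* were detected in no library. *Acaa2*, a thiolase of fatty acid oxidation, had 68.7, 208, 40.8 and 251 CPM in HFHS and 1.14, 0, 0 and 0 CPM in SD replicates (log2 fold change 9.08 ± 3.36, standard error; edgeR adjusted p = 0.667). *Hadhb*, another enzyme of that pathway and the most abundant of the list, overlapped at 54.4 to 258 CPM and 0 to 742 CPM. The summed level was 1010 to 1813 CPM on the HFHS diet and 519 to 1456 CPM on SD (exact permutation p = 0.114, adjusted over 29 single values p = 0.414).

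Of 14 genes of leptin and insulin signalling, 8 were tested, 6 higher and 2 lower on the HFHS diet, or 4 and 4 with DESeq2 size factors, and 6 of 8 higher without SD replicate 2. The leptin receptor gene *Lepr* and the insulin receptor substrate gene *Irs1* were detected in no library. The insulin receptor gene *Insr* had 68.5, 79.8, 34.7 and 83.2 CPM in HFHS and 0, 0, 21.9 and 0 CPM in SD replicates, with no overlap, 1 of 8 tested beside 5.73% of all tested genes (log2 fold change 3.70 ± 3.0, standard error; edgeR adjusted p = 0.9995). *Txnip*, a glucose-responsive inhibitor of thioredoxin, ranged from 311 to 2212 CPM on the HFHS diet and from 5.89 to 3319 CPM on SD.

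Migration genes were lower in direction, without a call. Of 17 tested genes, 13 were lower on the HFHS diet, 14 with DESeq2 size factors and 14 of 21 without SD replicate 2, with a median log2 fold change of −0.44 (−0.88 and −0.67). All tested genes had a median of 0.22 (−0.11 and 0.23), with 2588 of 4576 higher (2133 with DESeq2 size factors). The sums overlapped, at 3962 to 7046 CPM on the HFHS diet and 5492 to 8471 CPM on SD. *Selplg*, the P-selectin ligand gene, had 564, 997.5, 1092 and 604 CPM in HFHS and 710, 4523, 937 and 884 CPM in SD replicates, and its log2 fold change was −1.13 with SD replicate 2 and 0.019 without it. The adhesion receptor gene *Cd44* had 59.2, 6.03, 172 and 174 CPM in HFHS and 215.5, 0.196, 549.5 and 0 CPM in SD replicates.

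Genes of T helper 1 cells and cytotoxicity overlapped between the diets. Of 17 genes, 8 were tested, 5 higher on the HFHS diet, 4 with DESeq2 size factors and 2 of 8 without SD replicate 2. *Cxcr3*, a chemokine receptor gene of T helper 1 cells, had 0, 948, 207 and 1211 CPM in HFHS and 434, 0.196, 265 and 1032 CPM in SD replicates. The granzyme genes *Gzmb* and *Gzmk*, the perforin gene *Prf1* and the chemokine genes *Ccl3* and *Ccl4* were detected in no library. The sum was 211 to 3395 CPM on the HFHS diet and 0.977 to 2736 CPM on SD.

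Interferon-stimulated genes were highest in a single SD library. Their sum was 2497, 5204, 6522 and 3077 CPM in HFHS and 2176, 3984, 21959 and 706 CPM in SD replicates, and 15 of the 16 genes were detected in SD replicate 3 against 4 to 6 in the other SD libraries. *Ifi27l2a*, the most abundant, had 1387 to 2366 CPM on the HFHS diet and 793, 196, 3205 and 521 CPM in SD replicates. Of 10 tested genes, 7 were higher on the HFHS diet, 6 with DESeq2 size factors and 8 of 13 without SD replicate 2, while the mean sum differed by −2881 CPM (HFHS minus SD), or by 2036.5 CPM without SD replicate 3.

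Cell cycle transcripts were sparse. Of 20 genes, 5 were tested, 3 of them higher under both scalings and 6 of 8 without SD replicate 2, and *Cdk1*, *Ccna2*, *Ccnb1*, *Bub1* and *Ube2c* were detected in no library. The tubulin gene *Tubb5* had 475, 311, 387 and 89.2 CPM in HFHS and 2.02, 649.8, 0.331 and 0.236 CPM in SD replicates, so that its groups overlapped through SD replicate 2 alone. Without that library its log2 fold change was 8.62 (edgeR adjusted p = 0.380), against 0.87 with it (edgeR adjusted p = 0.9995).

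The most abundant transcripts per length were those of common lymphocyte genes and *Cst3*. By mean TPM, a level scaled by transcript length, *Tmsb4x* led at 55240, followed by *B2m* at 27370, the ribosomal gene *Rps27* at 11070, *Ppia* at 10930 and *Cst3* at 10780, the last through SD replicate 2. *Tmsb10*, *Pfn1*, *Cd52*, *Ifi27l2a* and *AW112010* followed at 8413 to 7011. *Tmsb4x* had 14430 to 25150 CPM on the HFHS diet and 18880 to 27480 CPM on SD. The groups of all 10 genes overlapped. *AW112010*, an immune-induced transcript, had 2293, 4806, 2124 and 2462 CPM in HFHS and 2003, 1941, 7843 and 2403 CPM in SD replicates.

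Whether the diet difference differed from that of conventional T cells was tested with activated conventional T cells of the same pools, as an interaction of cell type and diet over 16 libraries. Of 10279 genes, edgeR with Benjamini-Hochberg adjustment called 698 whose diet difference was higher in Tregs (6.79%) and 57 where it was lower (0.555%), with 2822 under an unadjusted p of 0.05. The fit takes 1 spread per gene for both cell types. Detected genes ran from 2152 to 6583 in Tregs and from 9261 to 10143 in conventional T cells. The shared spread can therefore be too small for Tregs, and its part in these calls was not tested. With the pool as a replicate block, which both cell types share, 0 and 0 genes passed and 758 had an unadjusted p under 0.05. Without SD replicate 2 of the Tregs, and without a block, the counts were 532 and 85. DESeq2's Wald test called 2012 and 319. In conventional T cells alone, a fit added after seeing the data, 0 of 10028 genes were higher (0.0%) and 0 lower (0.0%) by edgeR, with 418 under an unadjusted p of 0.05.

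Named genes with an interaction were mostly those near 0 in SD Tregs. For *Bccip* the edgeR adjusted p of the interaction was 0.00221 without a block and 0.506 with it, and for *Akap9* it was 0.00253 and 0.506. *Lonp2* had 0.00294 and 0.506, *Lta* 0.00499 and 0.569, and *Ccnt2* 0.0214 and 0.671. All 5 were named for their small p in the diet fit of the same Treg libraries, so these p-values are a description. In conventional T cells the log2 fold changes of these 5 genes were 0.68, 0.38, 0.21, −1.09 and −0.11. For *Il2ra* the log2 fold change was −0.08 in conventional T cells, and the interaction had an adjusted p of 0.0907 by edgeR, or 0.623 with the block. For *Foxp3*, the value by edgeR was 0.9999 without the block and 1.0 with it.

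Whether the difference was particular to Balb/c mice was tested as an interaction of strain and diet with the Tregs of C57Bl/6J mice. By edgeR with Benjamini-Hochberg adjustment, 0 of 7715 genes had a higher (0.0%) and 0 a lower (0.0%) diet difference in Balb/c mice, with 1295 under an unadjusted p of 0.05. DESeq2's Wald test called 1178 with a higher and 150 with a lower diet difference in Balb/c mice on the same genes. With SD replicate 2 left out, edgeR called 1 higher, *Capza2*, and 0 lower. The remaining Balb/c SD libraries held at most 1 count of *Capza2*, so this call is a description. The adjusted p of the strain interaction by edgeR was 0.194 for *Akap9*, 0.218 for *Bccip*, 0.278 for *Il2ra* and 0.9998 for *Foxp3*.

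The pilot pair asks the same question in 1 library per diet, so its values have no replicate error. The HFHS library held 2029515 counts on genes and 5158 detected genes, and the SD library 1234423 and 4037. After division by size factors, 5445 genes passed 20 normalized reads in 1 or both libraries. Of these, 2627 exceeded a 2-fold excess on the HFHS diet (48.2%) and 1757 were below 0.5-fold (32.3%). With more than 20 normalized reads required in both libraries, 1978 genes remained past the minimum, 502 of them higher and 474 lower.

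Directions in the pilot pair were compared with those of the second experiment, which shares no library with it. Of the genes higher in the pilot, 1341 were tested in the second experiment, and 55.3% of them had a higher fitted mean on the HFHS diet there. Of the genes lower in the pilot, 880 were tested and 54.4% were higher on the HFHS diet in the second experiment. Over all tested genes the share was 56.6%. Median log2 fold changes in the second experiment were 0.18, 0.17 and 0.22 for these 3 sets. Groups did not overlap for 74 higher and 4 lower of the 1341 genes, and for 49 higher and 4 lower of the 880, beside 262 higher (5.73%) and 23 lower (0.503%) of all 4576 tested genes.

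The study's text names 7 genes for hypothalamic Tregs from the pilot pair, so their direction there is not independent. In the second experiment, 5 of them were tested, 2 higher and 3 lower under both scalings (3 of 6 higher without SD replicate 2), and 0 passed edgeR's test. *Adam10* (chr9:70678944-70780229), a sheddase of surface proteins, had 3280 (HFHS) and 2 (SD) pilot counts (1365-fold, 95% interval 378 to 11280). In the second experiment *Adam10* had 0, 52.8, 17.3 and 99.2 CPM in HFHS and 0.0878, 0.391, 0 and 0.148 CPM in SD replicates, with 1 HFHS library at 0. *Il7r* (chr15:9506159-9529941) had 2964 and 93 pilot counts (26.5-fold, 95% interval 21.6 to 32.98), and its groups overlapped in the second experiment, as given above.

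Values of the other 5 named genes in both experiments follow. *Rock1*, a kinase of the actin cytoskeleton, was 9.75-fold higher on the HFHS diet in the pilot, and had 143, 68.3, 315.5 and 329 CPM in HFHS and 251, 321, 180.1 and 251 CPM in SD replicates of the second experiment. The transcription factor gene *Irf1* was 7.84-fold higher in the pilot (95% interval 5.77 to 10.9), and had 152, 367, 240.4 and 128 CPM against 399, 0.293, 292 and 267.5 CPM. The herpesvirus entry mediator gene *Tnfrsf14* was 70.4-fold higher in the pilot, and had 54.2, 11.5, 6.89 and 18.6 CPM against 54.7, 0, 0 and 0 CPM. *Mtor*, the kinase gene, had 127 and 2 pilot counts and in the second experiment was detected in HFHS replicates 2 (11 counts, 0.657 CPM) and 3 (21.6 CPM), with 0 counts elsewhere. *Irak1*, of interleukin 1 receptor signalling, had 165 and 2 pilot counts, and 249 CPM in SD replicate 4 against at most 25.7 CPM elsewhere.

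Among tested genes above 20 normalized reads in both pilot libraries, those with the highest and lowest pilot folds overlapped between the diets in the second experiment, with 1 exception. *Trp53inp1*, a stress-response gene, was 27.8-fold higher in the pilot (95% interval 22.2 to 35.2) and had 2.39, 27.3, 239 and 189 CPM in HFHS and 175, 13.9, 0.265 and 51.1 CPM in SD replicates. *Nptn*, *Trip4* and *Dnajc7* were 24.96, 24.7 and 24.0-fold higher in the pilot, and overlapped likewise. At the other end, the adaptor gene *Grap2* had a pilot fold of 0.0219 and the GTPase gene *Rap1b* 0.0357, and *Rap1b* had 813 to 1219 CPM on the HFHS diet and 590.1 to 1243 CPM on SD in the second experiment. *Senp6* and *Cd44* had pilot folds of 0.0369 and 0.0443. The exception was the palmitoyltransferase gene *Zdhhc15*, with a pilot fold of 0.0368 and the opposite direction in the second experiment, at 20.8, 321, 108 and 68.2 CPM in HFHS and 5.27, 0, 0 and 0 CPM in SD replicates (edgeR adjusted p = 0.9995). It was 1 among the 5 highest and 5 lowest folds, beside 5.73% of all tested genes that were higher without overlap.

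Genes detected only on the HFHS diet in the second experiment were on both sides in the pilot. *Bccip* had 297 (HFHS) and 0 (SD) pilot counts, at least 82.4-fold higher, and *Lta* had 84 and 0, at least 23.3-fold higher. *Akap9* had 0 and 507 pilot counts, at least 203-fold lower, opposite to the second experiment. *Lonp2* was also lower in the pilot, at 0.293-fold (95% interval 0.248 to 0.345), and *Ccnt2* was higher at 4.66-fold (95% interval 3.41 to 6.50). *Foxp3* had 184 and 93 pilot counts, 1.65-fold higher on the HFHS diet (95% interval 1.28 to 2.14), while its log2 fold change in the second experiment was −1.24. The pilot and the second experiment differed in read type, mapping and counting, and these cannot be told apart from differences between the mice.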

How the data were processed

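For the second experiment the authors quantified paired reads against mm10 with Salmon. The deposited estimated counts and TPM cover 35034 RefSeq transcript names. For the pilot experiment the authors mapped reads with BWA, and the deposited counts per gene symbol come from HTSeq. For each gene, estimated counts of all its names were added and rounded (34648 names, 98.9%, were matched), giving 24530 features, and TPM was added likewise. In the pilot Treg pair 6.23% (HFHS) and 3.84% (SD) of all reads listed were on genes. Coordinates are from RefSeq on GRCm38.

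Diets were compared in R 4.3.3 with edgeR 4.0.16 (TMM, quasi-likelihood F-test, Benjamini-Hochberg over all genes tested, threshold 0.05) on genes past 10 counts in 4 or more libraries, together with interactions of diet with cell type and with strain. The code was tested on simulated data with 200 changed genes, and recovery was required only for large changes at a low spread. That check does not show that changes are recovered at the spread of these libraries. Single values per library, with 29 in the family, were compared by exact two-sided permutation tests. Pilot counts were scaled by DESeq2's median-of-ratios method over the 8 pilot libraries, from 786 genes counted in each, with exact Clopper-Pearson 95% intervals. A fold against 0 counts is a lower bound, computed with a floor of 3 counts, while 1 to 3 counts give the ratio with its interval. Python 3.11.15, numpy 2.4.6, scipy 1.17.1, pandas 2.3.3 and matplotlib 3.10.9 were used for the rest.

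Alternatives were DESeq2 1.42.0 (Wald test, or its size factors in edgeR), limma 3.58.1 (voom with quality weights), other filters on low counts, other thresholds of detection, other pilot scalings, the pool as a replicate block, and leaving out each library. Removing SD replicate 2 from the interactions, from the detection counts and from the counts of groups that do not overlap, a detection threshold of 1 CPM, and the diet fit of conventional T cells alone were chosen after seeing the data. Tregs and conventional T cells were paired by pool label; across genes, deviations from the group mean in the same pool correlated at −0.0127 to 0.0335 (Pearson, over genes, which are not independent).

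Genes named in the text were those of the Treg identity list, the 7 genes the study names, all genes past the threshold (10 in each direction at most), the 5 higher and 5 lower with the smallest unadjusted p, the 5 highest and 5 lowest pilot folds among tested genes above 20 normalized reads in both pilot libraries, the 10 genes of highest mean TPM, and from each other list the most abundant gene and those whose diet groups do not overlap. Genes of a list detected in no library are named as well. The members and the 26 lists were chosen with earlier results of these data known. Rest-of-brain Tregs served for detected genes only. Results for some genes are not reported here.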

Additional observations from a re-analysis of the deposited data

Results flagged for a closer look

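In groups of 4 libraries, the gap of the highest or lowest library to its neighbour was compared with the whole range of its group. Of 240 groups tested, 60 had a library beyond Dixon's 95% critical value, where chance gives about 1 in 20. Many of these are genes or lists at or near 0 in the other libraries of the group.

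SD replicate 2 was far above the other SD libraries in markers of other cells. The summed levels were 30660 CPM for microglia genes, 2394 CPM for macrophage and monocyte genes, 1170 CPM for astrocyte genes, 398.8 CPM for B-cell genes and 315 CPM for endothelial genes. Single genes far above the rest there were *Cst3* (41320 CPM), *P2ry12* (4866 CPM), *Selplg* (4523 CPM), *Capza2* (2708 CPM), *Cx3cr1* (833 CPM), *Adgre1* (788.9 CPM), *Tubb5* (649.8 CPM), *Aldoc* (533 CPM) and *Cd79b* (398.8 CPM). *Il2rg* was far below the other SD libraries at 556 CPM. *Lrrc32* and *Lonp2* (0.0977 CPM each, 1 count) and *Akt1* (0.196 CPM) had counts there and none in the other SD libraries.

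Among the other SD libraries, replicate 1 was far above the rest in the neuropeptide sum (70.85 CPM, all of it *Pomc*) and the erythroid sum (79.2 CPM, all of it *Hba-a1*), and in *Fos* (7531 CPM), *Dnajc7* (436.5 CPM), *Tnfrsf14* (54.7 CPM), *Il2ra* (18.35 CPM), *Tigit* (14.8 CPM), *Zdhhc15* (5.27 CPM), *Acaa2* (1.14 CPM), *Entpd1* (0.263 CPM), *Nt5e* and *Rps6kb1* (0.176 CPM each). It was far below the rest in *Cd52*, at 1194 CPM. Replicate 3 was far above in the sum of interferon-stimulated genes (21959 CPM), *AW112010* (7843 CPM), *Trip4* (682 CPM), *Insr* (21.9 CPM) and *Pecam1* (3.58 CPM), and far below in *Rap1b* (590.1 CPM). Replicate 4 was far above in *Irak1* (249 CPM), *Nptn* (222 CPM), *Ikzf4* (195 CPM), *Syp* (1.60 CPM), *Myc* (0.0591 CPM), and *Lta* and *Bccip* (0.0296 CPM each, 1 count).

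Of the HFHS libraries, replicate 4 was far above the rest in total counts (38482277) and in *Nt5e* (26.5 CPM). Replicate 2 was far above in *AW112010* (4806 CPM), *Cd79b* (55.8 CPM) and the neuropeptide sum (0.0597 CPM, 1 count). Replicate 3 was far above in *Cd4* (466 CPM), *Mtor* (21.6 CPM), the sum of CD8 and natural killer genes (8.13 CPM, all but a trace of it *Cd8b1*) and *P2ry12* (0.0733 CPM, 1 count), and far below in *Bccip* (157 CPM). Replicate 1 was far above in *Trip4* (218 CPM) and *Map2k1* (35.65 CPM).

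Differences between cell types in the diet effect passed edgeR's test without a replicate block for 698 genes with a higher and 57 with a lower diet difference in Tregs than in activated conventional T cells, and for 0 with the pool as a replicate block. These fits take 1 spread per gene for both cell types, which can be too small for Tregs. The difference in detected genes between diets was 2278.5 higher in Tregs (exact permutation p = 0.0286, adjusted over 2 tests p = 0.0571). Among named genes, edgeR's adjusted p-values of the interaction without the block were 0.00221 for *Bccip*, 0.00253 for *Akap9*, 0.00294 for *Lonp2* and 0.00499 for *Lta*. For *Akt1* it was 0.0151, for *Ccnt2* 0.0214, for *Acaa2* 0.0308, for *Entpd1* 0.0369, for *Rps6kb1* 0.0410 and for *Cst3* 0.0443. For *Ptger4*, *Myc* and *Tnfsf8*, chosen after their values were seen, it was 0.00253, 0.00324 and 0.0151. Apart from *Entpd1*, all genes listed here were named for their values in the same Treg libraries. Their p-values are thus a description. Without SD replicate 2 the value was 0.791 for *Cst3* and under 0.05 for the other genes listed. It also fell under 0.05 for *Tubb5* (0.000712) and *Zfp950* (0.0345), which did not pass with that replicate in. The same held for *Capza2* (5.27e-07, against 0.9999 with it) and *Ddx5* (0.0359, against 0.0543). Both were chosen after their values were seen, so their p-values are a description. With the block the listed genes that passed with all libraries had 0.506 to 0.818. The log2 fold changes of *Akap9*, *Acaa2* and *Cst3* were 15.44, 9.08 and −5.90 in Tregs and 0.38, −0.34 and 0.19 in conventional T cells.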

How the results depend on the processing

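Over 116 results and 1023 values under alternatives, 903 kept their direction and their side of the threshold, 18 passed the threshold where the reported value did not, 84 changed direction and 18, all of them counts of genes, moved by more than 1.5 times. Tested values that kept direction and side may still have changed much in size. The tool moved the diet calls of Tregs most: DESeq2's Wald test called 175 higher and 10 lower and limma-voom with quality weights 171 and 6, where edgeR called 0 and 0. In edgeR, each other filter and scaling called 0, and leaving out a library called 0 to 1 higher genes, the 1 without SD replicate 2. For the strain interaction DESeq2 called 1178 higher and 150 lower in Balb/c mice against 0 and 0, and leaving out SD replicate 2 gave 1 higher gene. For the interaction with conventional T cells, edgeR's 698 and 57 became 0 and 0 with the pool as a replicate block, 2012 and 319 with DESeq2, and 146 lower with a filter of at least 8 of 16 libraries. Requiring more than 20 normalized reads in both pilot libraries left 502 higher and 474 lower genes. With more than 100 counts, 1 gene, *Egln2*, was detected in all SD libraries alone. Without SD replicate 2 that number was 6, and 79 genes were lower without overlap. In each case the cause was not tested.

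The difference in detected genes ran from 1827 to 2530 when single libraries were left out and was 2012, 2055 and 2151.5 with thresholds of 1 count, 100 counts and 1 CPM. The difference in total counts ran from −1657200 to 9367800. Differences in summed CPM whose sign turned on 1 library ran, for Treg identity from −1080 to 1352, tissue Tregs from −1133 to 43.2, core T-cell genes from −1879 to 1303, the 7 genes the study names from −14.1 to 408, mTOR and FoxO from −39.4 to 294, T helper 1 and cytotoxic genes from −387 to 674, interferon-stimulated genes from −5048 to 2036, leptin and insulin signalling from −275 to 1142, neuropeptides from −23.6 to 0.0149, B-cell genes from −116 to 16.9 and endothelial genes from −5.39 to 126 CPM.

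Of 73 named genes with a fitted fold change, 26 changed sign when a library was left out. Their log2 fold changes ran, for *Ikzf2* −1.58 to 0.90, *Ctla4* −1.02 to 0.11, *Tnfrsf18* −0.28 to 0.78, *Tnfrsf4* −0.83 to 0.45, *Icos* −0.66 to 0.96, *Nrp1* −0.27 to 1.44 and *Itgae* −1.03 to 0.41. For others they ran, as *Rock1* −0.54 to 0.056, *Irak1* −4.46 to 3.64, *Irf1* −0.44 to 0.26, *Tnfrsf14* −0.031 to 11.83, *Nptn* −0.67 to 13.27, *Trip4* −12.65 to 3.84 and *Rap1b* −0.39 to 0.0063. Next came *Cd44* −1.22 to 0.63, *Rps27* −0.48 to 0.017, *Ppia* −0.12 to 0.32, *Pfn1* −0.38 to 0.22, *Cd52* −0.0069 to 0.55, *AW112010* −0.61 to 0.41 and *Lgals1* −0.043 to 0.61. The rest were *Rheb* −0.63 to 0.77, *Selplg* −1.49 to 0.0195, *Cxcr3* −0.15 to 1.44, *Txnip* −0.44 to 1.52 and *Capza2* −0.48 to 14.24. With DESeq2 and with its size factors in edgeR 7 genes changed sign: *Tnfrsf18* (−0.10), *Icos* (−0.23), *Nrp1* (−0.025), *B2m* (−0.092), *Ppia* (−0.18), *Txnip* (−0.19) and *Capza2* (−0.58).

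Among genes that kept their sign, log2 fold changes ran furthest from the reported value for *Il2ra* (6.20 to 13.57), *Insr* (3.24 to 13.37), *Tubb5* (0.36 to 8.62), *Zdhhc15* (5.77 to 14.39), *Syp* (5.99 to 12.86), *Map2k1* (−12.20 to −5.34), *Acaa2* (8.598 to 14.52) and *Cst3* (−6.40 to −0.37).

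Depth limits absence to 0.0780 to 0.293 CPM per library. Detection varied from 2152 to 6583 genes at 10232574 to 38482277 counts, so 0 counts in a library does not show absence from its cells. With 4 libraries for each diet, and 1 of SD rich in microglia transcripts, edgeR's calls cover only differences that exceed this spread.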

Other observations

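Further genes were chosen after their values were seen, from those detected in all or most libraries, so their values are a description with no test. *H2az1*, which encodes the histone variant H2A.Z, had 2704, 958, 1395 and 2190 CPM in HFHS and 461, 328, 840.5 and 669 CPM in SD replicates 1 to 4, with no overlap (log2 fold change 1.70 ± 0.51, standard error). The translation factor gene *Eif4g2* had 399.7, 1193, 778 and 407 CPM in HFHS and 52.85, 192, 185 and 315 CPM in SD replicates (log2 fold change 1.93 ± 0.88). *Ddx5*, an RNA helicase gene, lay lower on the HFHS diet, at 856, 1628, 1197 and 1829 CPM against 2073, 1915, 3185 and 3397 CPM (log2 fold change −0.88 ± 0.37). In the pilot pair *H2az1* had 0 and 70 counts and *Ddx5* was 1.34-fold higher on the HFHS diet, both on the other side of their direction in the second experiment. *Eif4g2* was 1.94-fold higher on the HFHS diet in the pilot pair (95% interval 1.82 to 2.07), on the same side as in the second experiment.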
